A study of Mus musculus with 8 samples.

Results

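Gabbr2, Gabbr1 and Lhx6 were followed as 3 genes of the 21358 listed in a table of liver expression values from mice kept on a 22-week regimen in which food was withheld every other day. Gabbr2 and Gabbr1 were taken by symbol as the genes of the GABA-B receptor, and Lhx6 because its level was known to be lower in SG together with that of Gabbr2. Liver RNA was compared between the starvation glucose group (SG, libraries 101, 103, 104 and 105) and the feeding glucose group (FG, libraries 93, 94, 95 and 96), 4 libraries each, and the series text places the interest in glucose intake under different metabolic states. Both groups shared the fasting regimen, and the labels give no genotype, strain, sex, age, glucose dose or time since the last meal. The labels do not say that the libraries of a group came from separate animals, so the errors measure the spread between these libraries.

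The GABA-B receptor is a G protein-coupled receptor of the class C family that works as a pair of unlike subunits. The Gabbr1 product binds the transmitter GABA, whereas the Gabbr2 product brings its partner to the cell surface and couples to inhibitory G proteins, which lower cyclic AMP and, in neurons, open potassium channels. The liver is known as a main site of GABA breakdown, through the transaminase Abat. Lhx6 encodes a LIM homeodomain transcription factor best known for the fate and migration of GABA-producing interneurons of the forebrain.

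Levels are in FPKM, which divides a gene's fragments by its length and by the depth of the library, so they can be set beside each other between genes. Whole fragment numbers were recovered from the steps of the values, and library totals lay between 36545128 and 39214619 fragments in SG and between 38253764 and 41977438 in FG (exact two-sided permutation p = 0.171, where the smallest possible is 0.0286). Across the table, 9867 genes had at least 1 FPKM in at least 4 of the 8 libraries and were tested with limma on log2(FPKM + 1). At a Benjamini-Hochberg adjusted p below 0.05, 19.4% of them were called, 3.73% higher and 15.6% lower in SG. The median difference of all tested genes was -0.14 on the log2 scale. Scaling the libraries by median ratios brought that median to 0.01 and the calls to 545 higher and 499 lower, against 368 higher and 1544 lower without it, and quantile normalization gave 456 higher and 601 lower. In bulk liver, fewer cells of a type and less RNA per cell cannot be told apart.

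Gabbr2, the G protein-coupling subunit, was read well above the floor in every library. Its level was 5.54, 5.07, 5.56 and 5.09 FPKM in SG libraries 101, 103, 104 and 105, against 16.6, 13.8, 16.8 and 13.5 FPKM in FG libraries 93, 94, 95 and 96. The 4 SG values lay close together and the lowest FG value was 2.43 times the highest SG value, so the groups did not overlap. Across all tested genes the groups did not overlap for 26.1%, 4.35% with SG higher and 21.8% with SG lower. For Gabbr2 the means were 5.31 ± 0.272 FPKM in SG and 15.2 ± 1.77 FPKM in FG (SD, n = 4 each), a ratio of 0.350, and the difference on the log2(FPKM + 1) scale was -1.35 (SE 0.0849). Because the gene was chosen with this difference known, no test is given for it. Behind these levels stood 4510 fragments summed over SG and 13463 over FG, so counting error was small. Within FG the libraries fell into a higher pair, 93 and 95, and a lower pair, 94 and 96, and the coefficient of variation was 5.11% in SG and 11.6% in FG.

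Lhx6 was the scarcer gene. Its level was 1.14, 0.978, 0.785 and 0.815 FPKM in SG libraries 101, 103, 104 and 105, against 3.57, 3.58, 3.16 and 4.17 FPKM in FG libraries 93, 94, 95 and 96. Every FG library lay above every SG library, the lowest FG value being 2.78 times the highest SG value. The means were 0.929 ± 0.163 FPKM in SG and 3.62 ± 0.419 FPKM in FG (SD, n = 4 each), a ratio of 0.257. On the log2(FPKM + 1) scale the difference was -1.26 (SE 0.0884), a scale that understates the change of a gene this low. Its fewest fragments were 113 in SG 104 (95% Poisson interval 93.1 to 136) and its most 632 in FG 96 (584 to 683), intervals that cover counting error only. Lhx6 reached 1 FPKM in 1 SG library and in all 4 FG libraries, so it entered the tested set through FG, where it is high. Like Gabbr2, it was chosen with this difference known and is given no test.

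Gabbr1, the GABA-binding subunit, was lower still and its groups overlapped. It stood at 0.388, 0.393, 0.760 and 0.609 FPKM in SG libraries 101, 103, 104 and 105, against 0.644, 0.552, 0.240 and 0.307 FPKM in FG libraries 93, 94, 95 and 96. The highest value was in an SG library and the lowest in an FG library, but libraries of both groups lay in between. The means of 0.538 ± 0.181 FPKM in SG and 0.436 ± 0.193 FPKM in FG (SD, n = 4 each) differed by less than their spread, with a log2 difference of 0.10 (SE 0.128). Gabbr1 was under 1 FPKM in all 8 libraries and was not tested. Its fragments, 59 to 167 per library, varied by 13.4 times the counting variance in SG and 20.1 times in FG, so its spread within a group was larger than counting error.

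**Figure D1:**
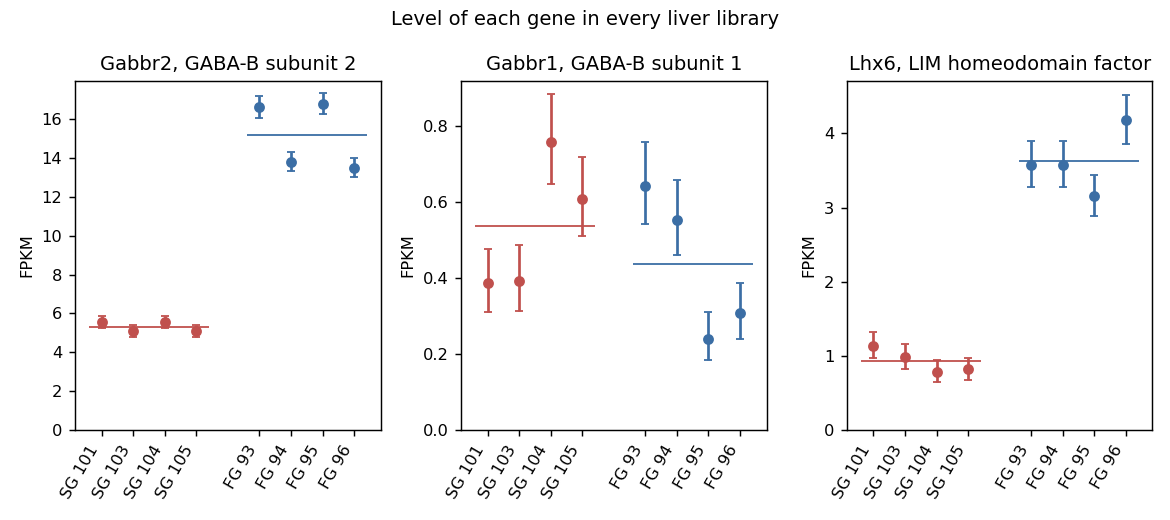
FPKM of Gabbr2, Gabbr1 and Lhx6 in each library, the 4 SG libraries left of the 4 FG libraries. Error bars are 95% Poisson intervals of the recovered fragments, scaled to FPKM, and horizontal lines are group means. SG and FG separate for Gabbr2 (5.31 and 15.2 FPKM) and Lhx6 (0.929 and 3.62 FPKM), and overlap for Gabbr1.

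The transcripts of the receptor subunits were therefore present at unequal levels. The ratio of Gabbr2 to Gabbr1 FPKM was 14.3, 12.9, 7.31 and 8.35 in SG libraries 101, 103, 104 and 105, and 25.8, 25, 69.9 and 44.0 in FG libraries 93, 94, 95 and 96. Gabbr2 exceeded Gabbr1 in all 8 libraries, and each FG ratio was above each SG ratio. As Gabbr2 was chosen with its higher FG level known and Gabbr1 differed little, that order of the ratios largely follows from the choice. The ratio of Gabbr2 to Lhx6 FPKM, by contrast, overlapped between the groups, at 4.87, 5.19, 7.08 and 6.24 in the same SG order and 4.65, 3.86, 5.32 and 3.24 in FG. By mean FPKM over the 8 libraries, Gabbr2 ranked 3508, Lhx6 7863 and Gabbr1 11278 among all genes of the table.

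The genes lie on separate chromosomes (GRCm38). Gabbr2, gene ID 242425, spans 329397 bp of chromosome 4, from 46662318 to 46991714, on the minus strand. Lhx6, gene ID 16874, spans 24043 bp of chromosome 2, from 36081950 to 36105992, on the minus strand, and has 3 RefSeq start sites. Gabbr1, gene ID 54393, spans 28340 bp of chromosome 17, from 37045966 to 37074305, on the plus strand. RefSeq promoter windows for GRCm38.p6 were found for all 3. The 250 bases before the start are printed for Gabbr2 and for the outermost listed start of Lhx6, the pair that was lower in SG together. Gabbr1 is printed for contrast. All Lhx6 windows lie inside the span of the gene, which ends at 36105992, whereas the Gabbr2 and Gabbr1 windows lie directly outside theirs. The windows are therefore not placed alike. Capitals mark the GC box GGGCGG or its reverse complement CCGCCC.
Gabbr2, chr4:46991715-46991964, minus strand: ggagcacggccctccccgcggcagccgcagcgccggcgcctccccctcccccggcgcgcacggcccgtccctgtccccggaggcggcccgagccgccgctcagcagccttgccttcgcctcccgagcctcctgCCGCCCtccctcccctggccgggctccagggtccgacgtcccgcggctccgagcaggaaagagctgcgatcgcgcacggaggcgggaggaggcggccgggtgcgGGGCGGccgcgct
Lhx6, chr2:36105409-36105658, minus strand: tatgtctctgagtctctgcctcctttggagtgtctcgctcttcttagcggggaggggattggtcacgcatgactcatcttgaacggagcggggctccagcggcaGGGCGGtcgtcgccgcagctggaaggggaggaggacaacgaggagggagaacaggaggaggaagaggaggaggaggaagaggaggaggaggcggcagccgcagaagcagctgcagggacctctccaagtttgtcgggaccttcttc
Gabbr1, chr17:37045716-37045965, plus strand: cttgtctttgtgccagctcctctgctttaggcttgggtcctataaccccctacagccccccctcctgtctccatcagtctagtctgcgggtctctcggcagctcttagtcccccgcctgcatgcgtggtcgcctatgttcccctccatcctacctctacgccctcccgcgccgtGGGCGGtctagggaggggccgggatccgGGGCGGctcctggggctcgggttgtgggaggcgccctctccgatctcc

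The Gabbr2 window was 80.8% G and C, above 99.0% of the 32851 promoter windows of the same length in the table, and held 37 CG dinucleotides, against a median of 6. The Gabbr1 window had 66.0% G and C with 16 CG dinucleotides. The 3 Lhx6 windows had 61.6%, 57.2% and 46.0% G and C, with 14, 17 and 7 CG dinucleotides, around a median of 52.4% G and C over all windows. The GC box, the site bound by factors of the Sp family, was found on either strand in 4 of the 5 windows of these genes and in 32.7% of all windows. In Gabbr2 it began 117 and 13 bases before the start, in Gabbr1 76 and 48 bases before it, and in the printed Lhx6 window 146 bases before it.

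Motifs of factors that respond to feeding were also searched on both strands. The E-box palindrome CACGTG was in none of the 5 windows and in 6.02% of all windows, and the sterol regulatory element core TCACNCCAC was in none and in 1.05%. The STAT element TTCNNNGAA was in none and in 7.02%, and the cyclic AMP response element TGACGTCA in none and in 1.55%. Of the homeodomain cores, TAATTA was in none of the 5 windows and in 4.84% of all windows, whereas TAATTG was in 1 window, that of the third Lhx6 start, and in 7.17% of all windows. None of these motifs overlaps the letters of another in the windows where a match was found. A match is a run of letters and no measured site.

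Among enzymes of GABA turnover, Abat, Gls2 and Aldh4a1 were called higher in SG. Of 11 genes listed for GABA synthesis and breakdown, 9 were tested, 3 were higher in SG and 0 lower, with a median log2 difference of 0.24 against -0.14 for all tested genes. The count of higher calls was 5 with median-ratio scaling and 1 without a filter on low values. Over all tested genes the share called higher was 3.73%. Abat, the mitochondrial transaminase that starts GABA breakdown, rose in SG, with 118 ± 11.5 FPKM in SG and 61.7 ± 8.42 FPKM in FG (SD, n = 4 each, log2 difference 0.93, limma adjusted p = 0.00235). Gls2, the liver glutaminase that releases glutamate, had 198 ± 49.1 FPKM in SG and 107 ± 22.6 FPKM in FG (log2 difference 0.87, limma adjusted p = 0.0184). Aldh4a1, which makes glutamate from the breakdown of proline, had 113 ± 17.9 FPKM in SG and 80.3 ± 5.79 FPKM in FG (log2 difference 0.48, limma adjusted p = 0.0241). Without FG 93 the adjusted p became 0.0511 for Gls2 and 0.0726 for Aldh4a1. Aldh5a1, which completes the conversion of GABA to succinate, had 10.8 FPKM in SG and 12.2 FPKM in FG and did not pass (limma adjusted p = 0.202), nor did Maoa, a monoamine oxidase, with 2.12 FPKM in SG and 3.54 FPKM in FG (limma adjusted p = 0.0506). The glutamate decarboxylases that make GABA were almost unread, Gad1 being at 0 in every SG library and Gad2 at 0 in every FG library, with group means of at most 0.008 FPKM.

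Carriers of GABA and related amino acids differed in both directions. Of 6 listed carriers found in the table, 5 were tested, 1 was higher and 3 were lower in SG. The shares over all tested genes were 3.73% higher and 15.6% lower. Slc6a13, the GABA carrier of the hepatocyte membrane, had 63.2 ± 6.02 FPKM in SG and 102 ± 15.7 FPKM in FG (SD, n = 4 each, log2 difference -0.68, limma adjusted p = 0.00875). Slc6a12, a carrier of betaine and GABA, had 25.4 ± 3.73 FPKM in SG and 16.4 ± 1.69 FPKM in FG (log2 difference 0.60, limma adjusted p = 0.013). These carriers of the same family were thus called in opposite directions, and both calls stood under each alternative tried. Slc6a6, the taurine carrier, had 16.0 FPKM in SG and 25.7 FPKM in FG (limma adjusted p = 0.0149), and Slc6a8, the creatine carrier, 2.16 FPKM in SG and 3.52 FPKM in FG (limma adjusted p = 0.041). The call of Slc6a8 was lost under 9 alternatives, both scalings among them, with adjusted p up to 0.150, whereas that of Slc6a6 was not lost. Across the 8 libraries Slc6a13 followed Gabbr2 with a Pearson r of 0.95, and of 0.91 once each group mean was taken away.

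Other GABA receptors were scarce in these livers. Of the 12 GABA-A subunit genes in the table, 10 averaged under 0.2 FPKM. Gabra3 averaged 0.529 ± 0.158 FPKM in SG and 0.541 ± 0.140 FPKM in FG (SD, n = 4 each). In the order of mean level Gabbr2 came first, at 10.3 FPKM over the 8 libraries, followed by Gabra3 at 0.535 and Gabbr1 at 0.487. Gabra3 and Gabbr1 did not differ beyond their spread, and the highest value of any GABA-A subunit in any library was 0.729 FPKM. Of the proteins that anchor or traffic GABA-A receptors, Gphn, Gabarap and Gabarapl1 were tested and 0 of 3 passed, but Gabarap did so without SG 101, as lower in SG (limma adjusted p = 0.0486). Among other receptors of the class C family only Gprc5c was tested, with 13.8 FPKM in SG and 14.5 FPKM in FG, and it did not pass (limma adjusted p = 0.700).

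On the side of GABA-B signalling, 36 genes of auxiliary subunits, G proteins, effectors and regulators were found, 16 were tested, 1 was higher and 5 were lower in SG. Their median log2 difference was -0.24, against -0.14 for all tested genes, of which 3.73% were called higher and 15.6% lower. Rgs16, which speeds the shut-off of inhibitory G proteins, had 14.2 ± 12.1 FPKM in SG and 141 ± 58.5 FPKM in FG (SD, n = 4 each, log2 difference -3.59, limma adjusted p = 0.0092). The G protein beta subunit gene Gnb1 had 20.01 FPKM in SG and 25.8 FPKM in FG (log2 difference -0.35, limma adjusted p = 0.027), and the gamma subunit gene Gng12 9.34 FPKM in SG and 13.7 FPKM in FG (log2 difference -0.50, limma adjusted p = 0.0152). Under median-ratio scaling or quantile normalization the count became 1 higher and 1 lower, so most of the lower calls, Gnb1 and Gng12 among them, rested on the scaling between libraries. The auxiliary subunit gene Kctd12 had 2.08 FPKM in SG and 1.94 FPKM in FG, and the inhibitory alpha subunit gene Gnai2 38.5 FPKM in SG and 49.2 FPKM in FG, neither past the threshold (limma adjusted p = 0.741 and 0.131). Without SG 101 Gnai2 was called lower in SG (limma adjusted p = 0.0386). The potassium channel genes Kcnj3, Kcnj5 and Kcnj9, effectors of the receptor in neurons, averaged at most 0.072 FPKM in either group.

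**Figure D2:**
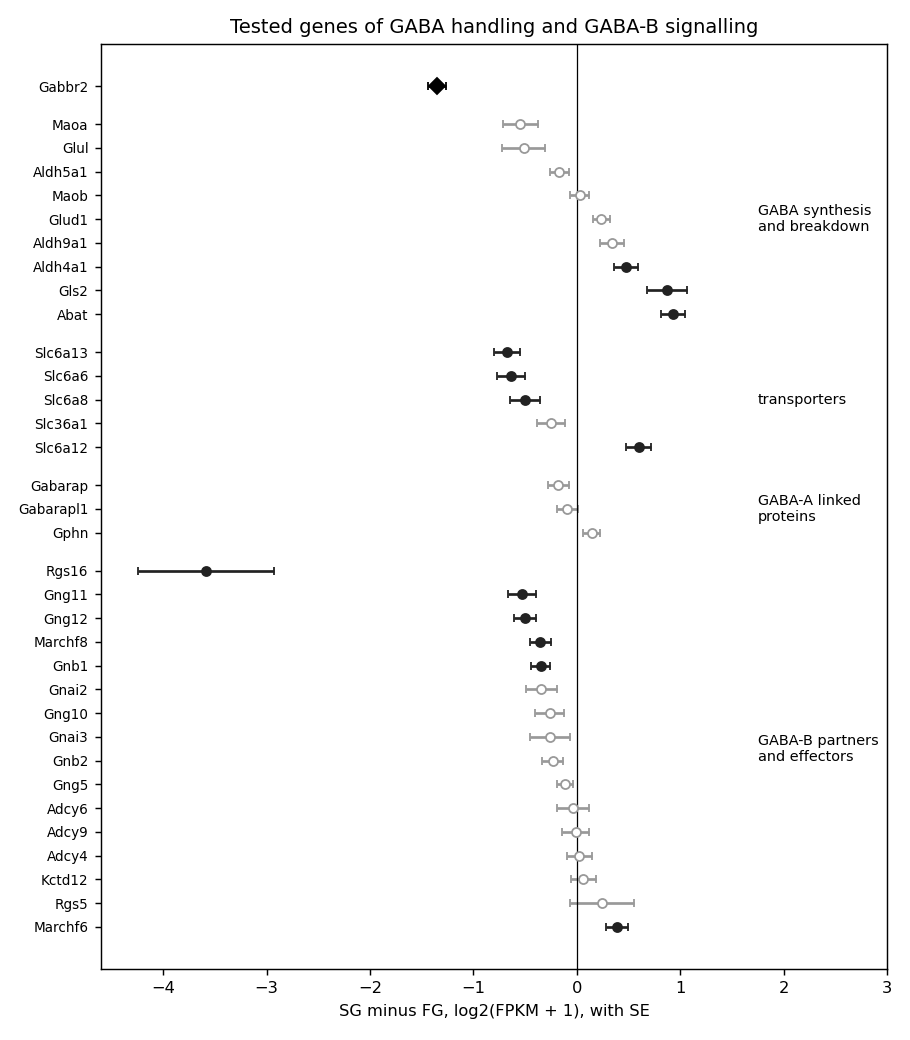
Difference in log2(FPKM + 1) between SG and FG, as SG minus FG with SE, of Gabbr2 (diamond, no test) and of other genes (circles). Circles are the tested genes of GABA handling and GABA-B signalling, filled where the limma adjusted p was below 0.05. The SE is that of limma for the circles and comes from the variances of the groups for Gabbr2. Abat at 0.93 and Slc6a12 at 0.60 lie on the side of higher SG values, Gabbr2 at -1.35 and Slc6a13 at -0.68 on the side of lower ones.

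For Lhx6 no other member of its protein family or of its known forebrain pathway was called. Of 12 LIM homeodomain factors and cofactors in the table, 6 were tested and 0 passed, with a median log2 difference of 0.04. Of all tested genes 19.4% passed. Ldb1, the cofactor that bridges LIM homeodomain proteins, had 6.48 ± 0.619 FPKM in SG and 6.66 ± 0.516 FPKM in FG, and Lmo4, a LIM protein without a homeodomain, 7.19 ± 1.23 FPKM in SG and 6.10 ± 0.787 FPKM in FG (SD, n = 4 each). Lhx2, the family member known from stellate cells, averaged 0.553 FPKM in SG and 0.650 FPKM in FG and was not tested. Of 15 genes listed for the LHX6 pathway in interneurons, 2 were tested and 0 passed. Gene by gene, the pathway was mostly unread: Dlx1, Dlx5 and Nxph1 averaged under 0.01 FPKM in both groups. Pvalb, a calcium-binding protein of interneurons and muscle, ranged from 0 to 11.6 FPKM over the SG libraries and from 0.0246 to 33.3 FPKM over the FG libraries.

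Markers of other cell types were read beside these values. Of 11 neuron markers, 10 averaged under 0.5 FPKM. Nefl, Th and Dbh were at 0 in every SG library, but Th and Dbh were read in FG 95 alone, at 1.47 and 0.668 FPKM. Syt1, the marker that averaged above 0.5 FPKM, had 4.44 FPKM in SG and 4.22 FPKM in FG. The neuron list summed to between 4.22 and 5.71 FPKM in SG and between 4.41 and 7.59 FPKM in FG, and the 7 Schwann cell markers to between 1.30 and 1.90 FPKM in SG and between 1.15 and 1.90 FPKM in FG. The stellate cell list, with 10 tested and 0 called, summed to between 130.5 and 158 FPKM in SG and between 137 and 197 FPKM in FG.

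In FPKM as deposited, the summed levels of 2 marker lists did not overlap between the groups, though few of their genes were called. The median-ratio factors of the libraries were 0.916 to 0.969 in SG and 1.03 to 1.11 in FG. The sums were not divided by them, so the separation of both lists depends on the scaling between libraries. The 10 markers of sinusoidal endothelial cells, all tested, 0 called higher and 2 lower, summed to between 93.8 and 112 FPKM in SG and between 122 and 148 FPKM in FG. The 2 of 10 called lower stand beside the 15.6% of all tested genes, and with median-ratio scaling 0 were called. The 2 were Clec4g, a lectin receptor with 34.7 FPKM in SG and 51.6 FPKM in FG (limma adjusted p = 0.0161), and Bmp2, with 4.11 FPKM in SG and 5.60 FPKM in FG (limma adjusted p = 0.0492). The Clec4g call was lost with median-ratio scaling and without FG 93 (adjusted p up to 0.0542), and that of Bmp2 under 11 alternatives (up to 0.226). Stab1, a scavenger receptor of this endothelium, had 7.07 FPKM in SG and 6.92 FPKM in FG. The 6 cholangiocyte markers in the table summed to between 13.1 and 19.1 FPKM in SG and between 21.9 and 27.7 FPKM in FG, and Spp1, the 1 called of 2 tested, made up most of that sum, with 12.4 FPKM in SG and 19.0 FPKM in FG. Under either scaling it was not called. The part of these cell types in the levels of Gabbr2 and Lhx6 was not tested. Markers of pancreatic acinar cells summed to 336 FPKM in FG 94 and 56.8 FPKM in FG 96, against 6.76 FPKM in FG 93 and 6.89 FPKM in FG 95. In SG they summed to between 8.24 and 53.2 FPKM. The FG libraries with the higher sums, 94 and 96, were those with the lower Gabbr2 levels, and a link was not tested. Without FG 94 the log2 difference was -1.39 for Gabbr2 and -1.26 for Lhx6. Of 10 Kupffer cell markers tested 0 passed, and no lymphocyte marker was tested.

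Across the 8 libraries Gabbr2 and Lhx6 had a Pearson r of 0.96 and a Spearman rho of 0.60 on log2(FPKM + 1). The points of both genes share their libraries and fall into the 2 groups, which alone gives a high r. Once each group mean was taken away, r was -0.48. The groups differed in this, with r of 0.18 in SG alone and -0.76 in FG alone, over 4 libraries each. Lhx6 was highest in FG 96, where Gabbr2 was lowest among FG libraries. Without FG 96 the within-group r over both groups was -0.16, without FG 95 -0.23 and without SG 101 -0.74. Gabbr1 followed neither gene, with r of -0.29 to Gabbr2 and -0.36 to Lhx6. Of 9359 genes with a mean of at least 1 FPKM, Lhx6 stood in place 106 by r with Gabbr2.

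**Figure D3:**
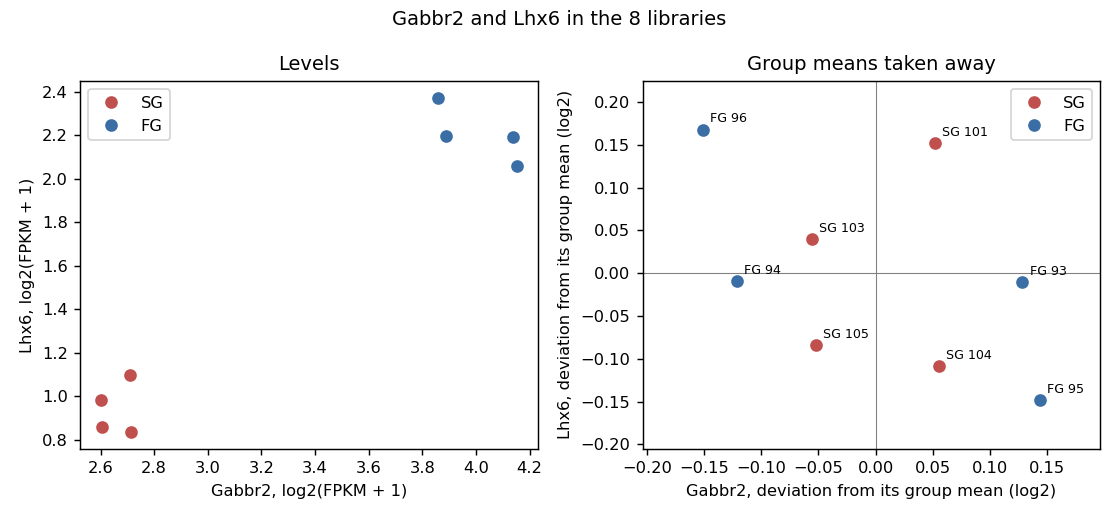
Lhx6 against Gabbr2 in the 4 SG and 4 FG libraries, as log2(FPKM + 1) on the left and as deviation from each gene's group mean on the right. The groups form separate clusters on the left (r = 0.96 over all 8), and on the right the points show no common rise (r = -0.48).

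Genes were then ordered by their likeness to each of the 3, by Pearson r over the 8 libraries. As Gabbr2 and Lhx6 were chosen by their FPKM difference between SG and FG, a high r with either selects for the same difference. The SG and FG values of the genes named by r are given as a description with no test. Differences within a group enter r as well, so likeness within groups of the genes named by r partly follows from their choice. With Gabbr2, 204 genes reached an r of at least 0.95 and 38 one of at most -0.95, against 107 and 16 with Lhx6 and 1 and 0 with Gabbr1. Among the 50 genes of highest r, Gabbr2 and Lhx6 shared 10, which is 20% of each list.

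Among the 6 genes most like Gabbr2 were Acaca, Cyp2b9, Elovl6, Heatr5b and Pdhb. Acaca, the acetyl-CoA carboxylase that commits carbon to fatty acid synthesis, came first with r = 0.995 and had a within-group r of 0.91. Its level was 10.1, 7.09, 7.96 and 7.66 FPKM in SG libraries 101, 103, 104 and 105, against 53.8, 32.2, 50.6 and 36.1 FPKM in FG libraries 93, 94, 95 and 96. Within FG it was higher in 93 and 95 than in 94 and 96, as Gabbr2 was. Cyp2b9, a cytochrome P450 known for higher levels in female liver, had r = 0.993 (within groups 0.94), with 0.355, 0.0789, 0.0639 and 0.0496 FPKM in the same SG order and 84.1, 28.1, 82.8 and 18.4 FPKM in FG. It too was higher in FG 93 and 95 than in FG 94 and 96. The fatty acid elongase Elovl6 had r = 0.991, Heatr5b 0.991 and Pdhb, a subunit of pyruvate dehydrogenase, 0.989, with within-group r of 0.60, 0.49 and 0.67. Elovl6 averaged 13.0 ± 1.49 FPKM in SG and 103 ± 22.5 FPKM in FG (SD, n = 4 each).

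The wider list of 20 lipogenic and glucose-induced genes, set up with earlier results of these data known, had 0 called higher and 17 lower in SG, with a median log2 difference of -1.70. Over all tested genes 3.73% were called higher and 15.6% lower, with a median of -0.14. The median r of the lipogenic list's members was 0.96 with Gabbr2 and 0.93 with Lhx6, against 0.44 and 0.42 over all genes compared. A list with most of its calls in the same direction has a pooled r far from 0 through the group difference alone. Of 15 tested fasting-induced genes, 7 were higher and 1 was lower (2 and 0 without a filter on low values), and the median r was -0.66 with Gabbr2 and -0.61 with Lhx6. Among 13 tested genes known as female-biased in liver, 1 was higher and 2 were lower in SG, and among 19 male-biased ones 5 were higher and 2 lower, or 6 and 0 under either scaling. The 2 of 13 called lower are near the 15.6% of all tested genes. The labels give no sex.

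The genes least like Gabbr2 were Serpina1e with r = -0.986, Rpl22l1 with -0.985, Urml with -0.985 and Enho with -0.982. Serpina1e, a gene of the alpha-1 antitrypsin family whose near-identical copies can share reads, had 5679, 5275, 4139 and 5563 FPKM in SG libraries 101, 103, 104 and 105, against 286, 604, 238 and 849 FPKM in FG libraries 93, 94, 95 and 96. Its FG values were lowest in 93 and 95, where Gabbr2 was highest, and the within-group r was -0.93. Enho, which encodes the secreted peptide adropin, averaged 10.1 ± 1.83 FPKM in SG and 0.569 ± 0.0922 FPKM in FG (SD, n = 4 each). Its within-group r with Gabbr2 was only 0.02, so its likeness lay in the group difference. By within-group r alone the genes most like Gabbr2 were Snrpb (0.986), Alkbh7 (0.986), Tmem53 (0.985) and Pgp (0.972). Of these Snrpb and Alkbh7 had a pooled r of 0.70 and 0.43.

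**Figure D4:**
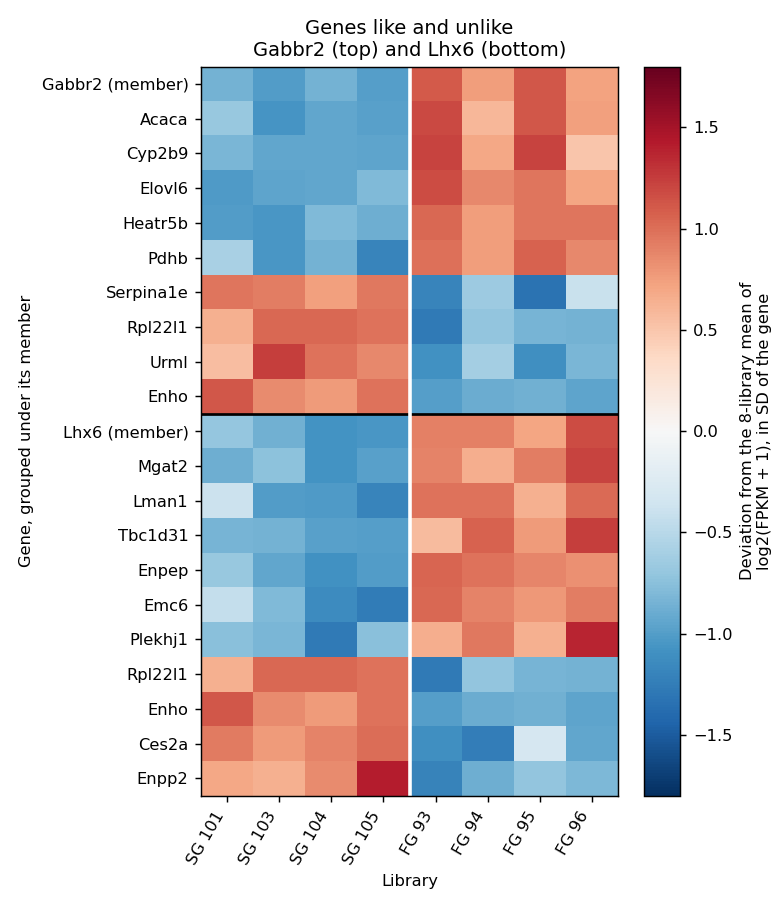
Levels of Gabbr2 and Lhx6 and of genes among the 6 of highest and the 4 of lowest Pearson r with each, as deviation from the 8-library mean of log2(FPKM + 1) in units of the gene's SD, with SG libraries left of FG libraries. Red is above and blue below the mean. The genes of highest r are blue in SG and red in FG, and those of lowest r the reverse.

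The 6 genes most like Lhx6 were none of those most like Gabbr2. Mgat2, an enzyme of N-glycan branching in the Golgi, led with r = 0.988, with 9.77, 10.6, 8.81 and 9.30 FPKM in SG libraries 101, 103, 104 and 105, against 24.1, 21.3, 24.3 and 28.1 FPKM in FG libraries 93, 94, 95 and 96. As for Lhx6, its highest value was in FG 96. Lman1, a cargo receptor between endoplasmic reticulum and Golgi, and Tbc1d31 both had r = 0.987, as had Enpep, the glutamyl aminopeptidase. Emc6, of the membrane insertion complex of the endoplasmic reticulum, had 0.985, and Plekhj1 0.984. Tbc1d31 averaged 1.10 ± 0.0737 FPKM in SG and 3.60 ± 0.588 FPKM in FG, and Enpep 15.0 ± 1.29 FPKM in SG and 35.9 ± 1.68 FPKM in FG (SD, n = 4 each). Least like Lhx6 were Rpl22l1 at -0.977, Enho at -0.974, the carboxylesterase gene Ces2a at -0.966 and Enpp2, the gene of autotaxin, at -0.966. Rpl22l1 and Enho were thus among the 4 of lowest r with both genes. By within-group r the fibronectin gene Fn1 (0.953), Serpina1a (0.952), Ankle2 (0.948) and Gphn (0.926) came first, and Serpina1a had a pooled r of -0.84, opposite in sign.

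Few genes had a high r with Gabbr1. Those named are the extremes of 9360 genes over 8 libraries, and how many chance alone would give was not tested. Hirip3 was the only gene past an r of 0.95, at 0.953, followed by Pdpr at 0.912, Brap at 0.907, Mfn1 at 0.897, Nepro at 0.883 and Fabp4 at 0.882. Hirip3 averaged 1.36 ± 0.404 FPKM in SG and 1.17 ± 0.492 FPKM in FG (SD, n = 4 each), and its groups, like those of Gabbr1, were not apart. Smo, the transducer of Hedgehog signals, was least like Gabbr1, at r = -0.932, followed by Eif1b at -0.910, Zcchc17 at -0.902 and Hemk1 at -0.887. By within-group r Adgrf5, an adhesion receptor of endothelium, came first at 0.993.

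Genes beside the 3 on their chromosomes were compared as well, as position was not used in the choice. Of the 30 nearest genes of the table, 5 on each side of each gene, 9 were tested, 0 were higher and 3 lower in SG, all 3 beside Lhx6. Lhx6 had 5 of the 9 tested neighbours, and 15.6% of all tested genes were called lower. Ndufa8, a subunit of respiratory complex I that ends 32612 bp before Lhx6, had 90.4 ± 15.9 FPKM in SG and 137 ± 16.2 FPKM in FG (SD, n = 4 each, log2 difference -0.60, limma adjusted p = 0.017). Mrrf, a mitochondrial ribosome recycling factor, had 5.44 FPKM in SG and 7.54 FPKM in FG (limma adjusted p = 0.0366), and Dab2ip 1.24 FPKM in SG and 1.99 FPKM in FG (limma adjusted p = 0.0212). These 3 differences, of -0.60, -0.42 and -0.42, were smaller than the -1.26 of Lhx6, and Rbm18, between Lhx6 and Mrrf, had 4.63 FPKM in SG and 4.77 FPKM in FG (limma adjusted p = 0.816). Median-ratio scaling left 0 of the 3 calls, with differences of -0.43, -0.27 and -0.31 for Ndufa8, Mrrf and Dab2ip, and quantile normalization left 1. Without FG 93 the differences were -0.59, -0.44 and -0.39, about as large as with it, and the adjusted p of 0.0511, 0.0764 and 0.0634 missed the threshold.

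Around Gabbr2 the neighbourhood was nearly unread. Trim14 was its only tested neighbour, with 10.3 FPKM in SG and 10.1 FPKM in FG (limma adjusted p = 0.876), and the nearest genes on either side, Tbc1d2 and Anks6, had 0.107 and 0.0551 FPKM in SG against 0.147 and 0.187 FPKM in FG. The predicted genes Gm32208 and Gm32135 lie inside the span of Gabbr2 and averaged at most 0.0288 FPKM in either group. The counted length of Gabbr2 was 5578 bases, of the 329397 bp of its span. As strand use in the counting is not stated, reads of another gene on those bases could not be told apart from those of Gabbr2. Whether the genes within the span share such bases was not tested. Of the neighbours of Gabbr1, 3 were tested and 0 passed.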

How the data were processed

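Per the labels' protocols, mRNA enriched from TRIzol extracts of liver was made into libraries and read as paired ends on an Illumina NovaSeq instrument. The submitters' processing notes name the tools fastp, HISAT2, HTSeq and DESeq2 and the builds GRCm38 (mm10). Their versions, and strand use in counting, are not stated. The deposited values are FPKM, made by the authors for 21358 genes in 8 libraries, with 0 per-sample columns unmatched to a label.

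FPKM are not counts, so log2(FPKM + 1) was fitted with limma 3.58.1 in R 4.3.3 (empirical Bayes with trend, no covariates, all 8 libraries), two-sided, with Benjamini-Hochberg adjustment over the 9867 genes with at least 1 FPKM in at least 4 libraries. Differences are SG minus FG. Whole fragments were recovered for 100% of genes within 0.02 fragments, with lengths fixed by 225 genes matching the exon union of GENCODE M21, and limma voom on them was an alternative added after seeing the data. The recovered depth sets the Poisson intervals given for the scarcest values. The fit and the recovery of fragments were tested on simulated data.

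The 3 genes and the 20 gene lists, of whose 311 memberships 274 were found, were chosen with earlier results of these data known. The others are not analysed here. Genes named were, for each of the 3, the 6 of highest and 4 of lowest Pearson r and the 4 of highest within-group r among genes with an official symbol and a mean of at least 1 FPKM, then up to 3 called members of each list (or the 2 most abundant) and the nearest 2 neighbours on each side. A few genes chosen this way are not reported here. Genes named outside it were picked with their values in view. Likeness was computed in Python 3.11.15 with scipy 1.17.1. Gene IDs were matched to RefSeq GRCm38.p6 for 20804 genes, which also gave the promoter sequences. The alternatives were another pseudocount, other filters, median-ratio and quantile scaling, no variance trend and leaving out each library.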

Additional observations from a re-analysis of the deposited data

Results flagged for a closer look

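In 170 groups of 4 libraries that were checked for a library far from the others, 9 had a gap to the nearest library, divided by the range of the group, above Dixon's 95% critical value, and chance flags about 1 in 20. None of them concerned Gabbr2, Gabbr1 or Lhx6. In SG 101 the share was 0.892 for Cyp2b9 (0.355 FPKM), 0.854 for Rpl22l1 (30.3 FPKM), 0.869 for Gabarap (203 FPKM) and 0.892 for Ndufa8 (114 FPKM). Plekhj1 stood apart in SG 104 (0.857, at 7.94 FPKM) and Ubd, a neighbour of Gabbr1, in SG 105 (0.902, at 0.138 FPKM). In FG 93 it was 0.843 for Pvalb (33.3 FPKM) and 0.837 for Apoa1 (4887 FPKM), and in FG 95 0.871 for Lman1 (85.7 FPKM).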

How the results depend on the processing

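No paired analysis was possible because SG and FG share no replicate number. Gabbr2 kept a negative log2 difference under all alternatives: -1.49 with a pseudocount of 0.1, -1.20 with median-ratio scaling, -1.20 with quantile normalization and -1.40 to -1.30 leaving out each library, against -1.35. Lhx6 gave -1.86 with a pseudocount of 0.1 and -1.31 to -1.20 leaving out each library, against -1.26, and Gabbr1 0.28 with a pseudocount of 0.1 and 0.03 to 0.17 leaving out each library, against 0.10. The count of called genes, 1912, became 1133 without a filter on low values, 1044 with median-ratio scaling, 1057 with quantile normalization and 834 to 2363 leaving out each library. It was 834 without FG 93, 1102 without FG 95, 1087 without SG 103, 1036 without SG 104 and 1036 without SG 105. The 53 called list genes became 31 without a filter and 34 to 56 leaving out each library, the lowest without FG 93. The 3 called neighbours became 1 without a filter, 0 with median-ratio scaling, 1 with quantile normalization and 0 to 3 leaving out each library. They were 0 without FG 93 and 1 without FG 94, SG 103, SG 104 or SG 105. The r of Gabbr2 with Lhx6 was 0.954 to 0.978 leaving out each library, and their within-group r was -0.066 with quantile normalization and -0.74 to -0.16 leaving out each library. The cause of these shifts was not tested. No called difference changed sign. Without the 2 libraries farthest from the median, the pooled r of Alkbh7 with Gabbr2 was -0.53 and that of Gabbr1 with Lhx6 0.01, against 0.43 and -0.36. Calls of Gng11 (8 settings), Dab2ip (8), Mrrf (10), Bmp2 (11), Spp1 (8), Apoa1 (9), Slc6a8 (9) and Plekhj1 (10) were lost most often.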
